A study of Mus musculus with 11 samples.

Results

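The DNA damage sensors and checkpoint kinases described here are 10 genes, *Mre11a*, *Rad50*, *Nbn*, *Atm*, *Atr*, *Chek1*, *Chek2*, *H2afx*, *Mdc1* and *Trp53bp1*, chosen by name from the 54418 genes of the count table and not by a threshold on any measured value, though with earlier results of these data known. All 10 had a row in the table and passed the filter on low counts in every comparison. Thymocytes (T cells that are still developing in the thymus) came from untreated mice of 8 to 12 weeks on the C57BL/6-WEHI background, and their RNA was sequenced. There were 4 wild-type (wt) mice, 4 mice lacking the RNA-binding protein ZMAT3 (*Zmat3*-/-) and 3 *Puma*-/-*p21*-/-*Zmat3*-/- mice (TKO), which also lack the apoptosis inducer PUMA and the cell cycle inhibitor p21. The deletions were present in every cell of the animals and not in T cells alone, and the cells were whole thymus suspensions and not sorted subsets. No mouse was irradiated or given a DNA-damaging drug before RNA extraction, so the values are resting transcript levels.

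A DNA double-strand break is first bound by the MRN complex of MRE11, RAD50 and NBN, which recruits and activates the kinase ATM. ATM phosphorylates histone H2AX around the break, MDC1 binds that mark, and 53BP1 (encoded by *Trp53bp1*) is recruited there in turn. ATM also activates CHK2, while ATR responds to single-stranded DNA at stalled replication forks and resected ends and activates CHK1, and both routes stabilise TRP53, the activator of *Puma*, *p21* and *Zmat3*. In thymocytes the same proteins handle the breaks that RAG1 and RAG2 make during antigen receptor gene rearrangement. Much of this response is set by phosphorylation of proteins that are already present, which RNA levels do not measure.

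Libraries held 17669715 to 80207003 counts. A count of 3, used as the detection floor, corresponded to 0.0367 to 0.174 CPM (counts scaled to library size, with TMM factors over all 11 mice), which covers counting error only, and the lowest value of any of the 10 genes was 8.42 CPM. All 14 thymocyte marker genes were counted in each library, with a summed level of 14570 to 19096 CPM. *Zmat3* itself was at 9.81, 12.1, 27.2 and 27.4 CPM in wt mice 1 to 4, at 5.33 to 6.91 CPM in *Zmat3*-/- and at 7.5 to 8.13 CPM in TKO mice. Of the genes for the proteins missing only in TKO mice, *Bbc3* (PUMA) had 11.9 to 15.8 CPM and *Cdkn1a* (p21) 2.26 to 3.55 CPM in TKO mice. They had 17 to 19.8 and 3.58 to 10.2 CPM in wt mice and 15.3 to 20 and 4.81 to 8.61 CPM in *Zmat3*-/- mice. *Bbc3* was thus still counted in TKO mice, at levels that overlapped with those of *Zmat3*-/- mice. Markers of B cells summed to 54.9 to 131 CPM, of myeloid cells to 214 to 574 CPM, of thymic stroma to 156 to 226 CPM and of erythroid cells to 867 to 8694 CPM, and none of these marker genes was at 0 in any library.

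The wt libraries fell into pairs. Across genes, which are not independent replicates, log2 CPM correlated at 0.989 between wt mice 1 and 2 and at 0.990 between wt mice 3 and 4, but only at 0.916 to 0.941 across these pairs, whereas the lowest value was 0.990 within *Zmat3*-/- and 0.980 within TKO mice. As a deviation from the mean of that gene in all 11 mice, the 555 tested genes with a main transcript over 8 kb had a median log2 deviation of −0.85 in wt mouse 1 and −0.69 in wt mouse 2, against 0.30 and 0.29 in wt mice 3 and 4. Genes with transcripts up to 1 kb did the opposite, with 0.64 and 0.42 in wt mice 1 and 2 and −0.25 and −0.28 in wt mice 3 and 4. In the 7 mutant libraries these medians stayed between −0.21 and 0.32. *Xist* was at 501 and 611 CPM in wt mice 1 and 2 and at 1.73 and 2.6 CPM in wt mice 3 and 4. *Xist* was also high, at 1098 to 1498 CPM, in *Zmat3*-/- mice 1 and 2 and TKO mouse 1. Their medians for transcripts over 8 kb were 0.04, 0.08 and 0.11, above those of wt mice 1 and 2 but below the 0.13 to 0.32 of the other 4 mutant mice, and the part of sex in the length pattern was not tested. The 10 genes run from a 1384-base transcript (*H2afx*) to a 9787-base transcript (*Atm*), so the differences of these 10 genes from wt are given below with all 4 wt mice and without wt mice 1 and 2.

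**Figure D1:**
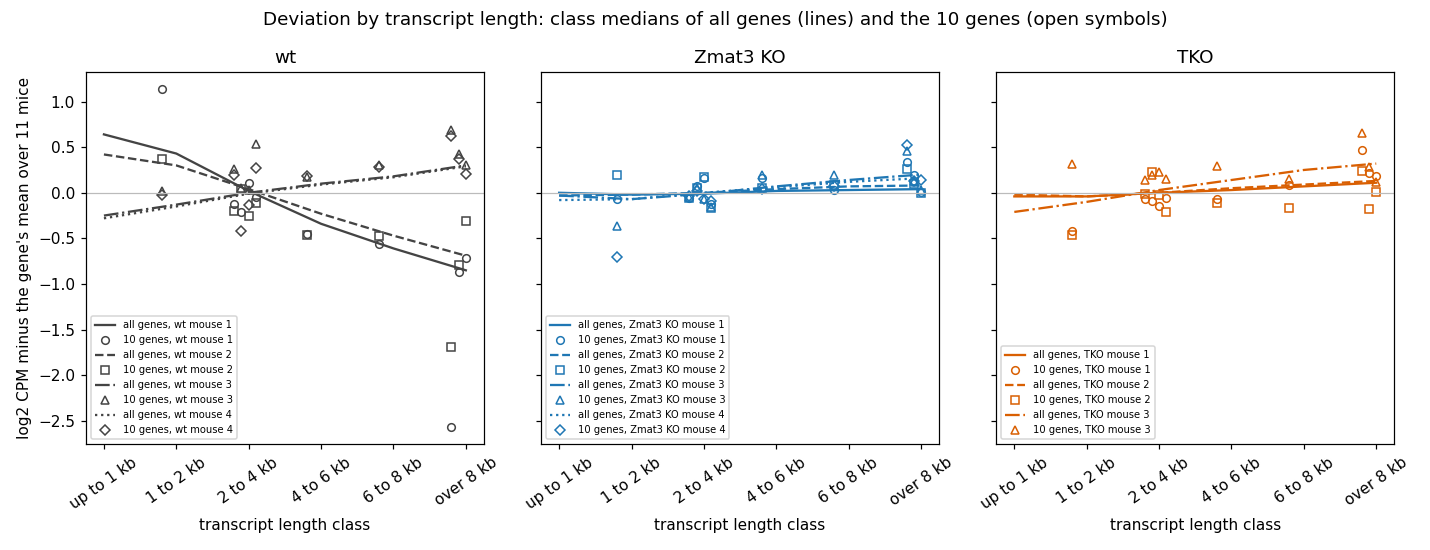
Deviation of log2 CPM from the gene's mean over 11 mice (y axis) by class of transcript length (x axis), in 1 panel per genotype: lines are medians over all tested genes and open symbols the 10 genes, with 1 line style and symbol per mouse. The lines of wt mice 1 and 2 fall from 0.64 and 0.42 to −0.85 and −0.69, and the lowest symbols, −2.57 and −1.69, are *Atm* in those mice.

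Per kilobase of main transcript, the scale on which levels of different genes can be compared, *H2afx* was by far the most abundant of the 10 in *Zmat3*-/- mice, where the replicates lay closest together, at 94.4 ± 25 CPM per kb (SD, n = 4). *Mre11a* followed at 13.6 ± 0.109 and *Mdc1* at 12.6 ± 0.674 CPM per kb, whose ranges overlapped, and then *Rad50* at 9.96 ± 0.526 CPM per kb, which overlapped with neither neighbour. *Trp53bp1* had 7.56 ± 0.333, *Atm* 7.1 ± 0.593, *Nbn* 6.9 ± 0.103, *Atr* 6.69 ± 0.201 and *Chek1* 6.66 ± 0.64 CPM per kb, and each of these 5 overlapped in range with the next in that order. *Chek2* was the least abundant at 4.29 ± 0.111 CPM per kb, below every value of *Chek1*. In wt mice 1 and 2 the lowest of the 10 was instead *Atm*, at 0.86 and 1.63 CPM per kb. Since the counts combine all transcripts of a gene, levels per kilobase of 1 transcript are approximate.

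**Figure D2:**
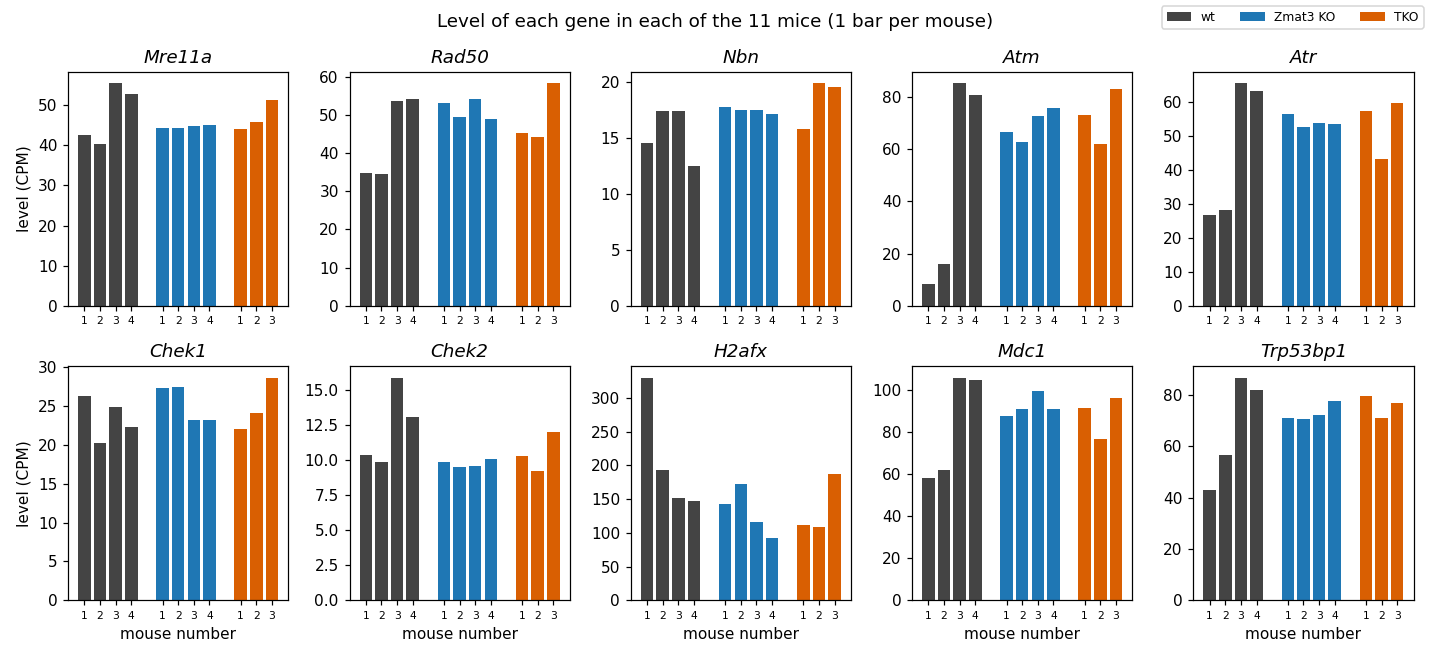
Level of each of the 10 genes in CPM (y axis, from 0, with its own scale in each panel) in each mouse (x axis, 1 bar per mouse, coloured by genotype). *Atm*, *Atr*, *Rad50*, *Mdc1* and *Trp53bp1* are lowest in wt mice 1 and 2, *H2afx* is highest there, and the *Zmat3*-/- and TKO bars overlap in every panel.

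Among the break sensors, *Mre11a* (chromosome 9, 14784654 to 14837123 on GRCm38, plus strand), which encodes the nuclease of the MRN complex, was at 42.6, 40.3, 55.5 and 52.7 CPM in wt mice 1 to 4. It was at 44.3, 44.4, 44.8 and 45.1 CPM in *Zmat3*-/- mice and at 44.1, 45.8 and 51.2 CPM in TKO mice. The mutant values lay between the pairs of wt values. *Rad50* (chromosome 11, 53649519 to 53707319, minus strand), the ATPase that bridges broken ends, was at 34.7, 34.5, 53.6 and 54.1 CPM in wt mice, at 53, 49.3, 54.2 and 48.8 CPM in *Zmat3*-/- mice and at 45.3, 44.1 and 58.3 CPM in TKO mice. The 2 low wt values were again those of mice 1 and 2, where the class of genes with 4 to 6 kb transcripts had median deviations of −0.34 and −0.23 and *Rad50* −0.45 and −0.46. *Nbn* (chromosome 4, 15957925 to 15992589, plus strand), whose protein couples the complex to ATM, did not follow the wt pairs, with 14.5, 17.4, 17.4 and 12.5 CPM in wt, 17.8, 17.5, 17.5 and 17.1 CPM in *Zmat3*-/- and 15.8, 19.9 and 19.5 CPM in TKO mice.

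The log2 fold change (log2FC) of these genes in *Zmat3*-/- against wt mice was −0.10 for *Mre11a* (95% interval −0.37 to 0.17), 0.22 for *Rad50* (−0.18 to 0.61) and 0.18 for *Nbn* (−0.11 to 0.47), and none passed edgeR's quasi-likelihood test. In TKO against wt mice the values were −0.04 (−0.38 to 0.31), 0.14 (−0.36 to 0.64) and 0.24 (−0.16 to 0.63). Without wt mice 1 and 2, *Mre11a* was lower in *Zmat3*-/- mice with a log2FC of −0.27 (interval −0.41 to −0.14, adjusted p = 0.00816 from edgeR), while *Rad50* came to −0.06 and *Nbn* to 0.23 and did not pass. In TKO mice the log2FC without wt mice 1 and 2 was −0.21 for *Mre11a* (interval −0.43 to 0.002), −0.14 for *Rad50* (−0.42 to 0.15) and 0.29 for *Nbn* (−0.12 to 0.69). The reads of *Mre11a* share 154 exon bases with *Ankrd49* on the other strand, and the library kit does not mark strand.

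*Atm* varied more between wt mice than any other of the 10 genes. The gene lies on chromosome 9 (53439149 to 53536740, minus strand), has a 9787-base main transcript and encodes the kinase that starts the response to double-strand breaks. It was at 8.42, 16, 85.4 and 80.9 CPM in wt mice 1 to 4, from 279, 654, 2027 and 2055 counts. It was at 66.7, 62.9, 72.7 and 75.7 CPM in *Zmat3*-/- mice and at 73.1, 62.2 and 83.2 CPM in TKO mice. The mutant values lie above wt mice 1 and 2, and all but TKO mouse 3 lie below both wt mice 3 and 4. The highest wt value was 10.1 times the lowest, a spread that 3.25% of the 13521 genes with a value reached in the wt mice. Its deviations of −2.57 and −1.69 in wt mice 1 and 2 exceeded the class medians of −0.85 and −0.69 for transcripts over 8 kb.

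The log2FC of *Atm* therefore depended on which wt mice entered. It was 0.55 in *Zmat3*-/- (SE 0.651, interval −0.94 to 2.04, adjusted p = 0.692 from edgeR) and 0.60 in TKO mice (SE 0.732, interval −1.10 to 2.30, adjusted p = 0.754) against all wt mice. Without wt mice 1 and 2 it was −0.25 in *Zmat3*-/- (interval −0.42 to −0.08, adjusted p = 0.0286 from edgeR) and −0.20 in TKO mice (−0.47 to 0.07, adjusted p = 0.288). With 1 surrogate variable in the fit of all mice it was instead 0.88 in *Zmat3*-/- (adjusted p = 4.2e-05 from edgeR) and 0.85 in TKO mice (adjusted p = 0.0026). The replicate number as a block gave 1.13 (adjusted p = 0.402 from edgeR) and 1.68 (adjusted p = 0.305), and the *Xist* level as a covariate 1.06 (adjusted p = 0.319) and 0.99 (adjusted p = 0.56). Leaving out wt mouse 1, 2, 3 or 4 alone gave 0.20, 0.26, 0.98 and 0.94 in *Zmat3*-/- and 0.25, 0.31, 1.04 and 0.99 in TKO mice. With the *Xist* level and 1 surrogate variable together, DESeq2 gave *Atm* a log2FC of 0.85 in *Zmat3*-/- mice (adjusted p = 2.51e-25 from DESeq2). *Atm* thus passed as higher in both fits with a surrogate variable. It passed as lower only in *Zmat3*-/- mice without wt mice 1 and 2, a setting chosen after seeing the data. No direction is given for it here.

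*Atr* (chromosome 9, 95857597 to 95951781, plus strand), the kinase of the replication stress response, showed the same division of wt mice at a smaller size. Its levels were 26.7, 28.2, 65.7 and 63.4 CPM in wt mice 1 to 4, 56.5, 52.6, 53.9 and 53.7 CPM in *Zmat3*-/- mice and 57.5, 43.2 and 59.7 CPM in TKO mice. In wt mice 1 and 2 its deviations of −0.87 and −0.79 were close to the medians of its length class, −0.85 and −0.69. Its log2FC against all wt mice was 0.24 in *Zmat3*-/- (interval −0.45 to 0.93) and 0.21 in TKO mice (−0.62 to 1.03), and without wt mice 1 and 2 it was −0.25 (adjusted p = 0.0121 from edgeR) and −0.28 (adjusted p = 0.215). With 1 surrogate variable and all mice it was instead 0.255 (adjusted p = 0.0207 from edgeR) and 0.173 (adjusted p = 0.222). DESeq2 with the *Xist* level and 1 surrogate variable gave 0.229 in *Zmat3*-/- mice (adjusted p = 0.0177), so no direction is given for *Atr* either. Of its exon bases, 1366 are shared with 3 other genes, among them antisense transcripts.

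The effector kinases were less variable. *Chek1* (chromosome 9, 36708482 to 36727065, minus strand), which encodes CHK1, was at 26.3, 20.3, 24.9 and 22.3 CPM in wt, 27.3, 27.5, 23.2 and 23.2 CPM in *Zmat3*-/- and 22.1, 24.1 and 28.7 CPM in TKO mice. Its values overlapped throughout, and its log2FC against wt was 0.11 in *Zmat3*-/- (interval −0.16 to 0.38) and 0.07 in TKO mice (−0.27 to 0.42), and 0.11 and 0.07 also without wt mice 1 and 2. *Chek2* (chromosome 5, 110839979 to 110874145, plus strand), which encodes CHK2, was at 10.4, 9.9, 15.9 and 13.1 CPM in wt, 9.88, 9.52, 9.58 and 10.1 CPM in *Zmat3*-/- and 10.3, 9.23 and 12 CPM in TKO mice. The *Zmat3*-/- values reached only the lower part of the wt range, and the lowest wt value was below 1 of them. Its log2FC in *Zmat3*-/- mice was −0.33 (SE 0.165, interval −0.71 to 0.05, adjusted p = 0.368 from edgeR) against all wt mice and −0.56 (SE 0.116, interval −0.82 to −0.30, adjusted p = 0.00547) without wt mice 1 and 2, and it was −0.58 (adjusted p = 0.0048) when the length trend of each library was also removed. Without wt mouse 3 alone, the highest of the wt mice, it was −0.195 (adjusted p = 0.399 from edgeR). In TKO mice the corresponding values were −0.24 (interval −0.72 to 0.25), −0.47 (adjusted p = 0.114) and −0.46 (adjusted p = 0.114), and −0.10 (adjusted p = 0.8) without wt mouse 3 alone.

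Sequence around the start sites of 3 kinase genes and *Mdc1* is shown because a word bound by E2F factors, which drive genes of DNA replication, recurred in it. RefSeq windows of 300 bases, from 250 before to 50 after the start site (GRCm38.p6), were at hand for 7 of the 10 genes, and the windows of 4, *Atm*, *Chek1*, *Chek2* and *Mdc1*, hold the 7-base word TTCCCGC or its reverse complement GCGGGAA, against 4.6% of all 32851 windows. The windows of *Atr*, *Mre11a* and *Trp53bp1* do not hold these letters, and those of *H2afx*, *Nbn* and *Rad50* were not analysed here. The word was picked after the sequences had been read, and a match is a description of letters and not of a bound site. The stretches around each match, on the strand of the gene, have the word in capitals.
*Atm*, chr9:53536633-53536673, word from base 16 after the start: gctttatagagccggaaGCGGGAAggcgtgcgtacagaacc
*Chek1*, chr9:36726609-36726632, word from base 44 after the start, at the end of the window: gacgcaagcaggttttgGCGGGAA
*Chek2*, chr5:110839814-110839854, word from 152 bases before the start: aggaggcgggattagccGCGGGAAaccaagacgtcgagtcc
*Mdc1*, chr17:35841352-35841392, word from 129 bases before the start: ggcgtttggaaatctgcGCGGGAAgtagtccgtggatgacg
*Mdc1*, chr17:35841466-35841506, word from 15 bases before the start: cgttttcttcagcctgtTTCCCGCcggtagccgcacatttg
Among the genes that hold the word, *Atm* and *Mdc1* were lowest in wt mice 1 and 2 and *Chek1* was not. Their main transcripts fall in different length classes, over 8 kb for *Atm*, 6 to 8 kb for *Mdc1* and 2 to 4 kb for *Chek1*. That contrast therefore does not bear on the word, and the part of the word in the levels was not tested.

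*H2afx* (chromosome 9, 44334694 to 44336077, plus strand), which encodes the histone variant that ATM phosphorylates, is the shortest of the 10 genes. It was at 330, 193, 151 and 147 CPM in wt mice 1 to 4, 143, 172, 116 and 91.7 CPM in *Zmat3*-/- mice and 111, 109 and 187 CPM in TKO mice. Unlike *Atm* it was highest in wt mice 1 and 2, and its order over the *Zmat3*-/- mice was the reverse of that of *Atm*. In TKO mice both genes were highest in mouse 3 and lowest in mouse 2. The highest value was that of wt mouse 1, and the mutant ranges reached into the wt range. Its log2FC against wt was −0.65 in *Zmat3*-/- (SE 0.296, interval −1.33 to 0.03, adjusted p = 0.328 from edgeR) and −0.62 in TKO mice (SE 0.339, interval −1.41 to 0.17, adjusted p = 0.558), the most negative of the 10 genes in both. Without wt mouse 1 alone it was −0.33 and −0.30, and without wt mice 1 and 2 it was −0.18 (interval −0.60 to 0.24) and −0.15 (−0.63 to 0.33). *H2afx* also varied most of the 10 within *Zmat3*-/- mice, where the highest value was 1.88 times the lowest, a spread that 8.64% of genes reached.

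The *H2afx* level moved in part with markers of dividing cells. The summed level of 16 proliferation genes, among them *Mki67*, *Top2a* and *Pcna*, was 4967, 3430, 3705 and 3521 CPM in wt mice 1 to 4, 3955, 4196, 3583 and 3152 CPM in *Zmat3*-/- mice and 3149, 3295 and 4875 CPM in TKO mice. In each genotype the mouse with the highest sum also had the highest *H2afx* level, and in *Zmat3*-/- mice the order of the 4 mice was the same in both, but wt mouse 2 had the lowest sum and the second highest *H2afx* level of the wt mice. *H2afx* in TKO mice 1 and 2 (111 and 109 CPM) also ran against the order of the sums. The link was not particular to *H2afx*, since *Chek1* ran in the order of the sums in wt and in TKO mice. It did so in *Zmat3*-/- mice too, with mice 3 and 4 level at 23.2 CPM. In these bulk samples fewer cells of a type and less RNA per cell cannot be told apart. The part of dividing cells in the *H2afx* and *Chek1* values was not tested. *H2afx* shares 141 of its 1384 exon bases with a miRNA gene, *Gm44335*, on the other strand.

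**Figure D3:**
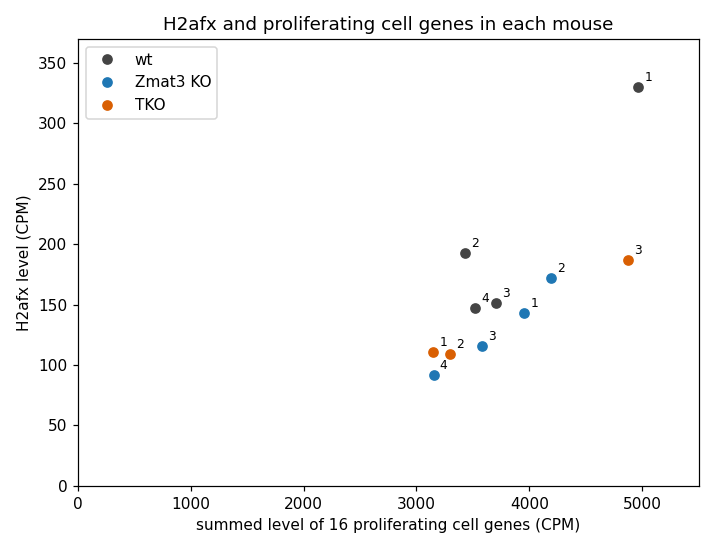
*H2afx* level (y axis, CPM) against the summed level of 16 proliferating cell genes (x axis, CPM), with 1 point per mouse, coloured by genotype and labelled with the mouse number; both axes start at 0. The highest points are wt mouse 1 (330 CPM), wt mouse 2 (193 CPM) and TKO mouse 3 (187 CPM), and wt mouse 2 has a lower proliferation sum (3430 CPM) than the other 2.

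*Mdc1* (chromosome 17, 35841515 to 35859670, plus strand), whose protein reads the phosphorylated histone, was at 58.4, 62, 106 and 105 CPM in wt mice 1 to 4, 87.9, 91, 99.4 and 90.8 CPM in *Zmat3*-/- mice and 91.7, 76.7 and 96.1 CPM in TKO mice. Every mutant value lay between the wt pairs. *Trp53bp1* (chromosome 2, 121193281 to 121271407, minus strand), which encodes 53BP1, a factor that protects ends from resection, was at 42.9, 56.6, 86.7 and 81.7 CPM in wt, 70.9, 70.5, 72 and 77.4 CPM in *Zmat3*-/- and 79.5, 71 and 76.7 CPM in TKO mice, which again lay between the wt pairs. The log2FC in *Zmat3*-/- mice was 0.16 for *Mdc1* (interval −0.32 to 0.64) and 0.12 for *Trp53bp1* (−0.36 to 0.60) against all wt mice, and −0.19 (adjusted p = 0.037 from edgeR) and −0.21 (adjusted p = 0.0244) without wt mice 1 and 2. In TKO mice it was 0.08 (−0.50 to 0.65) and 0.17 (−0.39 to 0.72), and −0.27 (adjusted p = 0.137) and −0.16 (adjusted p = 0.262). With 1 surrogate variable and all mice *Mdc1* passed instead as higher in *Zmat3*-/- mice (0.136, adjusted p = 0.0424 from edgeR), and *Trp53bp1* did not pass (0.096, adjusted p = 0.196). With DESeq2, the *Xist* level and 1 surrogate variable *Mdc1* was 0.134 there and did not pass (adjusted p = 0.0825). *Trp53bp1* shares 15% of its exon bases with *Tubgcp4* on the other strand, and *Mdc1* lies on the chromosome that also carries *Cdkn1a*, which is deleted in TKO mice.

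Counted over the 10 genes, 0 passed edgeR's test at an adjusted p under 0.05 in *Zmat3*-/- against wt mice, where 0.763% of the 13494 genes tested did (12 genes in place of 103 with the replicate number as a block). With any single mouse left out 17 to 105 genes passed. At an unadjusted p under 0.05 the counts were 0 of 10 and 16.1% of all genes, and the CPM ranges of the genotypes did not overlap for 0 of 10 and 13.9% of all genes. In TKO against wt mice 0 of 10 passed, against 0.294% of 13260 genes, 0 of 10 against 10.3% at an unadjusted p under 0.05, and 0 of 10 against 13.8% had ranges that did not overlap. The 39 genes called there became 16 with the block and 16 to 40 when any single mouse was left out. DESeq2 also called 0 of 10 in each of these comparisons, against 8.04% of all genes in *Zmat3*-/- and 2.87% in TKO mice. The median log2FC of the 10 genes was 0.14 in *Zmat3*-/- and 0.11 in TKO mice, beside −0.03 and −0.04 over all genes tested. The interval of *Atm* reached a log2 of 2.04 in *Zmat3*-/- mice, whereas those of *Mre11a*, *Nbn* and *Chek1* stayed within a log2 of 0.5 either way.

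Without wt mice 1 and 2, 6 of 10 genes passed in *Zmat3*-/- against wt mice, all of them lower: *Mre11a*, *Atm*, *Atr*, *Chek2*, *Mdc1* and *Trp53bp1*. In that fit of 4 against 2 mice 33.0% of 14107 genes passed and 15.5% passed as lower, and the median log2FC was −0.20 for the 10 genes and 0.005 for all. Wt mice 3 and 4 had their own length trend, with longer transcripts higher, and when it was removed as well 2 of 10 passed, *Chek2* and *Mre11a*, against 31.3% of all genes. In TKO mice the same fits called 0 of 10 genes, against 8.15% and 9.51% of all genes. With 1 surrogate variable and all mice, 6 of 10 genes passed in *Zmat3*-/- mice, against 37.8% of all genes: *Rad50*, *Atm*, *Atr* and *Mdc1* as higher and *Chek2* and *H2afx* as lower. When *Xist* and a surrogate variable were both covariates, DESeq2 called 4 of 10 against 35.9%, and in TKO mice both fits called *Atm* alone, against 17.9% and 22.3% of all genes. In each of these fits and in both mutants *Mre11a*, *Chek2* and *H2afx* had a negative and *Nbn* and *Chek1* a positive log2FC. The share of counts from mitochondrial genes was 4.45% and 4.25% in wt mice 3 and 4 and 5.38% and 6.31% in wt mice 1 and 2, against 6.54% to 14.6% in *Zmat3*-/- mice with no overlap and 3.86% to 9.29% in TKO mice. Myeloid markers summed to 283 and 257 CPM in wt mice 3 and 4, against 367 to 505 CPM in *Zmat3*-/- and 214 to 574 CPM in TKO mice, and stroma markers to 156 and 164 CPM, against 175 to 197 and 162 to 187 CPM. With wt mice 1 and 2, at 441 and 472 CPM for myeloid and 226 and 214 CPM for stroma markers, the wt and *Zmat3*-/- ranges overlapped. The wt mice kept, 3 and 4, had low *Xist* (1.73 and 2.6 CPM), whereas *Zmat3*-/- mice 1 and 2 and TKO mouse 1 had 1098 to 1498 CPM. The *Xist* level was not a covariate in the fits without wt mice 1 and 2. The part of sex and of these shares and markers in the differences was not tested.

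**Figure D4:**
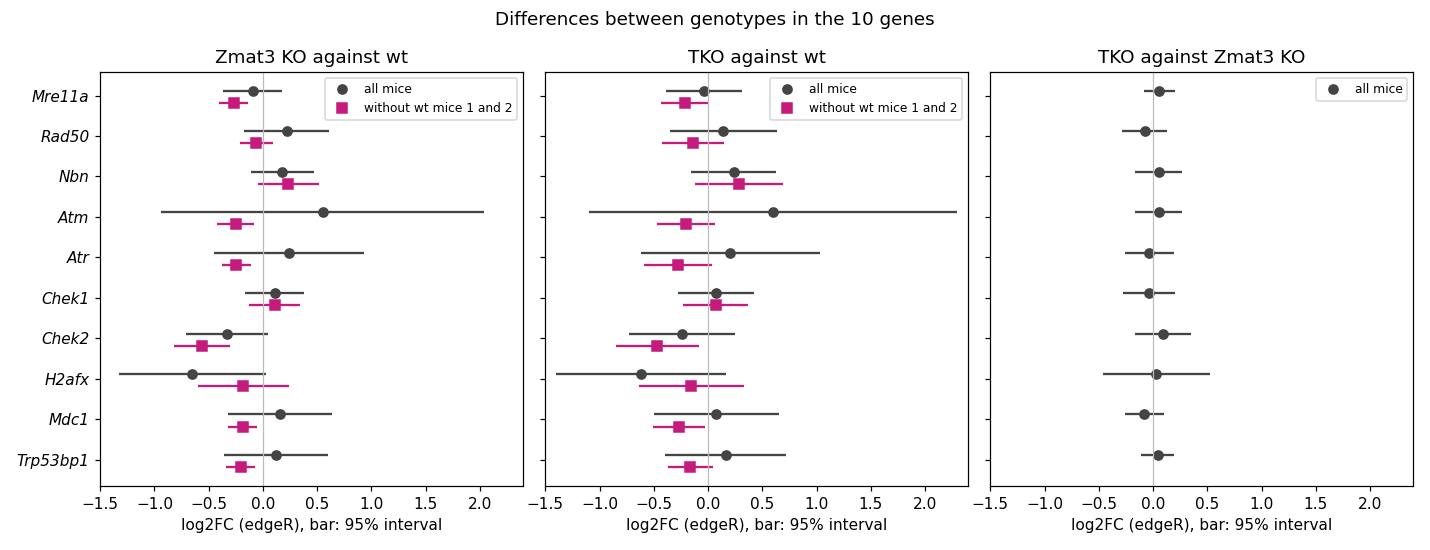
Log2FC from edgeR (x axis) with its 95% interval (bars) for the 10 genes (y axis) in each comparison (panels), with all mice (circles) and without wt mice 1 and 2 (squares, comparisons with wt only). *Atm* moves from 0.55 to −0.25 in *Zmat3*-/- against wt mice, and the comparison of TKO with *Zmat3*-/- mice has narrower intervals than either comparison with all wt mice, and all of them cross 0.

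The comparison of TKO with *Zmat3*-/- mice asks what the added loss of PUMA and p21 changes, and it does not involve the wt libraries. Here the 10 genes lay close to 0. Their log2FC ran from −0.08 (*Mdc1*, interval −0.26 to 0.10) to 0.09 (*Chek2*, interval −0.17 to 0.35), with a median of 0.04 beside −0.01 over all genes. *Atm* had 0.05 (interval −0.16 to 0.27), *Atr* −0.03 (−0.26 to 0.19), *Chek1* −0.04 (−0.28 to 0.20), *Mre11a* 0.06 (−0.09 to 0.20) and *Trp53bp1* 0.04 (−0.11 to 0.19). The widest interval was that of *H2afx*, from −0.46 to 0.52. By edgeR 0 of 10 passed, with the lowest adjusted p at 0.983, against 0.221% of 13124 genes, and 0 of 10 passed at an unadjusted p under 0.05 against 4.49%. DESeq2 also called 0 of 10, against 0.556% of all genes, and 0 of 10 had ranges that did not overlap, against 5.65%. The *Zmat3*-/- mice were closely alike in these genes, with a median of 1.10 over the 10 for the ratio of the highest to the lowest value, beside 1.21 over all genes, and TKO mice had 1.30 beside 1.26.

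A further 52 genes of the pathway were listed by role, of which 51 were in the table and tested. None passed at an adjusted p under 0.05 in any comparison by edgeR, with 8, 5 and 2 of 51 at an unadjusted p under 0.05 in *Zmat3*-/- against wt, TKO against wt and TKO against *Zmat3*-/- mice. These are 15.7%, 9.8% and 3.92% of the list, beside 16.1%, 10.3% and 4.49% of all genes. In *Zmat3*-/- against wt mice 18 of 51 had a positive and 33 a negative log2FC, with a median of −0.09, and in TKO against wt mice 19 and 32, with a median of −0.13. The gene with the smallest p was in both cases *Rhno1*, which encodes a partner of the 9-1-1 clamp in ATR activation. It was at 93, 78.2, 77.5 and 81.3 CPM in wt, 57.3, 59.3, 64.1 and 53.7 CPM in *Zmat3*-/- and 55.8, 58.8 and 62.9 CPM in TKO mice. All 7 mutant values lay below all 4 wt values. Its log2FC was −0.49 in *Zmat3*-/- (adjusted p = 0.0682 from edgeR) and −0.50 in TKO mice (adjusted p = 0.255), which share the wt mice, and without wt mice 1 and 2 it was −0.43 (adjusted p = 0.00208) and −0.44 (adjusted p = 0.0265).

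Among the 8 kinase partners and assembly factors, *Kat5*, the acetyltransferase that acetylates ATM, had the smallest p against wt. It was at 59.8, 59.1, 54.2 and 48.8 CPM in wt, 39.6, 45.3, 40.5 and 39.7 CPM in *Zmat3*-/- and 41, 32.4 and 43 CPM in TKO mice, again with no overlap between wt and either mutant. Its log2FC was −0.43 in *Zmat3*-/- (adjusted p = 0.0966 from edgeR) and −0.53 in TKO mice (adjusted p = 0.314), and without wt mice 1 and 2 −0.31 (adjusted p = 0.0139) and −0.42 (adjusted p = 0.0847). *Telo2*, which helps to assemble the ATM family of kinases, had the smallest p of all 51 in TKO against *Zmat3*-/- mice, with 28.3, 23.2 and 26.3 against 20.1, 20.5, 20.1 and 19.3 CPM. Its log2FC there was 0.36 (interval 0.16 to 0.56, adjusted p = 0.43 from edgeR), and against wt it was −0.18 in *Zmat3*-/- and 0.19 in TKO mice, or −0.13 and 0.23 without wt mice 1 and 2.

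In the list of 16 tested ubiquitin and end-protection factors, *Abraxas1*, the scaffold of the BRCA1-A complex, led against wt with 25.2, 22.7, 26 and 23 CPM in wt, 15.9, 16, 20.1 and 18.2 CPM in *Zmat3*-/- and 21.8, 13.2 and 18.1 CPM in TKO mice. Its log2FC was −0.46 in both mutants (adjusted p = 0.109 and 0.457 from edgeR). Without wt mice 1 and 2 it was −0.47 (adjusted p = 0.0102) and −0.47 (adjusted p = 0.167). Among the 6 phosphatase genes *Ppp4r2*, a regulatory subunit of the phosphatase that removes the H2AX mark, had the smallest p in all comparisons. It was at 133, 147, 162 and 157 CPM in wt, 179, 189, 187 and 194 CPM in *Zmat3*-/- and 186, 223 and 205 CPM in TKO mice, and its log2FC was 0.33 in *Zmat3*-/- (adjusted p = 0.151 from edgeR) and 0.44 in TKO mice (adjusted p = 0.357). All mutant values of *Ppp4r2* lay above all wt values. Without wt mice 1 and 2 its log2FC was 0.24 (adjusted p = 0.00895) and 0.35 (adjusted p = 0.0667).

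Of the checkpoint targets, 0 of 8 reached an unadjusted p under 0.05 by edgeR in any comparison with all mice. In *Zmat3*-/- against wt mice 1 of 8 did without wt mice 1 and 2, beside 6310 of all 14107 genes tested. It was *Cdk2*, a kinase of the cell cycle (log2FC −0.15, adjusted p = 0.0575 from edgeR). *Trp53*, the target shared by both kinase routes, had the smallest p of them in *Zmat3*-/- against wt mice, with 143, 136, 111 and 128 CPM in wt and 120, 116, 103 and 102 CPM in *Zmat3*-/- mice and a log2FC of −0.23 (interval −0.48 to 0.02), or −0.11 without wt mice 1 and 2. *Cdc25c*, a phosphatase that CHK1 and CHK2 restrain, had it in both TKO comparisons, with a log2FC of −0.47 (interval −1.06 to 0.13) against wt, −0.49 without wt mice 1 and 2, and −0.27 (−0.74 to 0.21) against *Zmat3*-/- mice. In TKO against *Zmat3*-/- mice the smallest p of the clamp and RPA genes was that of *Rpa3* (log2FC −0.30, interval −0.55 to −0.05, adjusted p = 0.983 from edgeR), and of the ubiquitin and end-protection factors that of *Shld2* (−0.18, interval −0.41 to 0.05). Without wt mice 1 and 2, 16 of the 51 genes passed in *Zmat3*-/- against wt mice, 5 as higher and 11 as lower, and 1 of 51 in TKO against wt mice. These are 31.4% and 1.96% of the list, beside 33.0% and 8.15% of all genes. The signs of the 8 kinase partners depended on the wt mice kept. In all, 4 had a positive and 4 a negative log2FC in *Zmat3*-/- mice against all wt mice. All 8 had a negative one without wt mice 1 and 2, with 5 past the threshold. The length trend of the libraries, also that of wt mice 3 and 4, was not removed in these values of pathway genes. *Prkdc*, the kinase of break joining and a relative of *Atm* and *Atr*, was at 27.8, 34.5, 84.3 and 91.2 CPM in wt mice 1 to 4, 56.4 to 73.4 CPM in *Zmat3*-/- and 59 to 80.5 CPM in TKO mice. Its log2FC in *Zmat3*-/- mice was 0.11 (adjusted p = 0.897 from edgeR) against all wt mice and −0.45 (adjusted p = 0.00693) without wt mice 1 and 2. In TKO mice the edgeR values were 0.19 (adjusted p = 0.868) and −0.37 (adjusted p = 0.102).

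Immediate-early genes, which respond to cell handling and stress, separated wt from both mutants, while the mutants overlapped. Their summed level over 12 genes was 818, 756, 372 and 391 CPM in wt mice 1 to 4, 1351 to 1711 CPM in *Zmat3*-/- and 1390 to 1720 CPM in TKO mice. Of the 10 checkpoint genes, 0 had all wt values on one side of all 7 mutant values, against 8.61% of 13522 genes, and 7 of the 51 other pathway genes (13.7%) did: *Abraxas1*, *Kat5*, *Ppp2ca*, *Ppp4r2*, *Rad1*, *Rad9a* and *Rhno1*. The authors list *Fos*, *Jun* and *Dusp1*, which are among the immediate-early genes summed here, as changed in TKO thymocytes and read them as regulated by ZMAT3. Neither the part of cell handling nor that of ZMAT3 in these differences was tested.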

How the data were processed

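Thymocyte RNA of 4 wt, 4 *Zmat3*-/- and 3 TKO mice was sequenced with an unstranded, paired-end kit. Salmon and the build GRCm38.p6 were used by the authors, who deposited estimated counts per gene, unnormalized, of which all were whole numbers. Mice were grouped by the genotype in their labels. Nothing says that the mice were littermates. Gene names, positions and transcript lengths came from GENCODE M21 (GRCm38), matched by identifier for 54166 of 54418 genes. The main transcript is the one with the longest coding sequence.

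Each pair of genotypes was tested in edgeR 4.0.16 (R 4.3.3; TMM, quasi-likelihood test, Benjamini-Hochberg adjustment over all genes tested, two-sided). A gene was kept with 20 counts at the depth of the smallest library in a number of mice equal to the smaller group. *Xist*, genes of chromosome Y, non-coding immunoglobulin genes and ribosomal RNA were dropped. A gene was called at an adjusted p under 0.05. SE is the absolute log2FC over the square root of F, and 95% intervals use the fit's degrees of freedom. The code was tested on simulated data. The authors' model had sex and surrogate variables; the labels give no sex, so the *Xist* level and 1 surrogate variable (sva 3.50.0) were alternatives, with DESeq2 1.42.0. The length trend was removed as an offset, a lowess fit (span 0.5) of log2 CPM (pseudocount 0.5) on transcript length in each library. All 10 genes are named, and in each pathway list the called genes or else the one with the smallest p in the comparisons with all mice; *Prkdc*, *Cdk2*, *Ppp2ca*, *Rad1* and *Rad9a* were named after their values were seen. The genes and lists were chosen with earlier results of these data known.

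Samples of the same number may be paired. Deviations from the genotype mean of same-numbered mice correlated at 0.379, 0.12, 0.282 and 0.31 in *Zmat3*-/- and wt mice 1 to 4, all over 0.1, so the replicate block was fitted as an alternative. Differently numbered mice correlated as strongly, at 0.214 and 0.416 between numbers 1 and 2 and at 0.286 and 0.199 between 3 and 4, and at −0.424 to −0.175 across these pairs of numbers, so the values do not single out the number. They correlated at 0.085, 0.348 and 0.428 in TKO and wt and at 0.142, −0.017 and 0.173 in TKO and *Zmat3*-/- mice, which share a number only.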

Additional observations from a re-analysis of the deposited data

How the results depend on the processing

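Other tests, normalizations, filters and covariates and single mice left out kept the direction and the side of the threshold for 422 values of log2FC of single genes, reversed 26 and moved 12 past the threshold with the direction kept. The settings chosen after seeing the data (wt mice 1 and 2 left out, the length trend removed, both, and the length trend with the block) gave 46, 30 and 4, and 4 of the 30 reversed values (*Atm*, *Atr*, *Mdc1* and *Trp53bp1* without wt mice 1 and 2) also passed the threshold. Why the values moved was not tested. The count of called genes, 0 in each comparison, stayed at 0 (lowest and highest 0) when any single mouse was left out, with DESeq2, RLE size factors, no filter, all genotypes in one fit, the *Xist* level or the length trend removed. It became 6 in *Zmat3*-/- and 1 in TKO against wt mice with 1 surrogate variable, 4 and 1 with DESeq2, the *Xist* level and 1 surrogate variable, 6 and 0 without wt mice 1 and 2, and 2 and 0 with the length trend removed as well. With the replicate number as a block it was 0 in each comparison, and 0 in *Zmat3*-/- against wt mice with the length trend removed and the block. The block gave *Atm* a log2FC of 1.13 in *Zmat3*-/- and 1.68 in TKO against wt mice, and it turned *Mre11a* to 0.025 in TKO against wt and *H2afx* to −0.13 in TKO against *Zmat3*-/- mice. The block also gave *Atr* 0.365 in *Zmat3*-/- against wt mice. In TKO against wt mice the block gave *Rad50* 0.273, *Nbn* 0.147, *Atr* 0.514, *Chek1* 0.051, *Chek2* −0.187, *H2afx* −0.716, *Mdc1* 0.257 and *Trp53bp1* 0.331. It changed no call of the 10 genes.

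In *Zmat3*-/- against wt mice, leaving out wt mice 1 and 2 reversed *Rad50* (−0.061), *Atm* (−0.252), *Atr* (−0.245), *Mdc1* (−0.186) and *Trp53bp1* (−0.205), and with the length trend removed as well these were −0.003, −0.11, −0.128, −0.085 and −0.063. The length trend alone reversed *Mdc1* (−0.064) and *Trp53bp1* (−0.193), which were −0.064 and −0.186 with the block. In TKO against wt mice, leaving out wt mice 1 and 2 gave −0.139 for *Rad50*, −0.201 for *Atm*, −0.279 for *Atr*, −0.268 for *Mdc1* and −0.163 for *Trp53bp1*, and −0.091, −0.096, −0.192, −0.189 and −0.054 with the length trend removed as well. The length trend alone gave −0.01 for *Rad50*, −0.028 for *Atr*, −0.178 for *Mdc1* and −0.194 for *Trp53bp1*, and no filter gave 0.014 for *Mre11a*.

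In TKO against *Zmat3*-/- mice, *Atm* was −0.014 with 1 surrogate variable, −0.011 with DESeq2, the *Xist* level and 1 surrogate variable, and −0.001 with the length trend removed. *H2afx* was −0.123 and −0.065 in the first and second of these, and *Trp53bp1* −0.005 in the third.

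With single mice left out, the values that crossed 0 ran from −0.043 to 0.258 for *Trp53bp1* in *Zmat3*-/- against wt mice. In TKO against wt mice they ran from −0.017 to 0.177 for *Chek1*, −0.06 to 0.214 for *Mdc1*, −0.112 to 0.038 for *Mre11a* and 0 to 0.308 for *Trp53bp1*. In TKO against *Zmat3*-/- mice they ran from −0.028 to 0.158 for *Atm*, −0.1 to 0.102 for *Atr*, −0.13 to 0.032 for *Chek1*, −0.245 to 0.192 for *H2afx*, −0.124 to 0.015 for *Mdc1*, −0.193 to 0.003 for *Rad50* and −0.008 to 0.093 for *Trp53bp1*.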
